A study of Mus musculus with 25 samples.

Results

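Plasminogen activators and serpins were followed in mouse ovarian follicles, fresh and over 8 days in alginate. The set was defined by name: every gene whose symbol on the bead array began with Serpin, a clade letter from a to i and a number, together with Plau, Plaur and Plat. It held 59 of the 17914 genes on the array, measured by 71 probes. Of these, 22 had a probe detected on at least 3 of the 20 follicle arrays and were tested among 10688 genes. The study asked how transcript levels change as a secondary follicle matures in vitro.

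Plau encodes urokinase and Plat encodes tissue plasminogen activator, the proteases that turn plasminogen into plasmin, which in turn degrades fibrin and matrix. Urokinase acts at the cell surface when bound to its receptor, the product of Plaur. Serpins are a family of proteins that mostly trap serine proteases by an irreversible change of shape, and some of them, such as the products of Serpine2, Serpina5 and Serpini1, inhibit plasminogen activators. In the ovary, plasminogen activation is known for its part in follicle growth and in the breakdown of the follicle wall at ovulation.

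Follicles came from CD-1 mice aged 16 days and measured 150 to 180 µm. Cultured groups were taken after 2, 4, 5, 6 and 8 days (n = 3 arrays each) in medium that held FSH at 10 mIU/ml, serum albumin, fetuin, insulin, transferrin and selenium, with each follicle in its own alginate bead; the labels state no genetic change. Fresh follicles of day 0 gave 5 arrays. For each group 20 to 40 follicles were pooled, and the labels speak of 3 independent experiments; by their titles the day 0 arrays repeat a reference and could stem from 1 pool, in which case p-values that rest on them measure technical spread. All groups shared strain, age of the mice and follicle size at isolation, and a pool holds oocytes with their granulosa and theca cells.

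Each follicle array detected 44.2% to 51.3% of its probes, and the median standard deviation of a gene within a day lay between 0.17 and 0.28 on the log2 scale. Granulosa, oocyte and theca markers were detected, with 7 of 8, 9 of 10 and 7 of 8 listed genes passing the filter. Day 6 repeat 1 stood apart, with a mean correlation with its own day of 0.951, the lowest of all follicle arrays. A further 5 arrays labelled brain reference went against their label: the heart muscle gene Myh6 gave signals of 23900 to 36800 there, while the neuronal genes Snap25 and Syt1 and the astrocyte gene Gfap were detected on none of the 5. They were used in no comparison.

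The promoters of 4 clade A serpins are shown because all tested clade A members lie together in the genome and split in their course during culture. In the RefSeq gene order of GRCm38.p6, 21 of the 22 clade A genes on the array form 1 run on chromosome 12, and the run holds all 9 that were tested. The sequences are the 250 bases before the RefSeq start, 5′ to 3′ on the gene's strand. Capitals in the first pair mark bases that differ between Serpina3n (chr12:104406458-104406707, plus strand) and Serpina3c (chr12:104153873-104154122, minus strand); in Serpina3g (chr12:104235897-104236146, plus strand) they mark a motif match, and Serpina5 (chr12:104100863-104101112, plus strand) has none.
Serpina3n: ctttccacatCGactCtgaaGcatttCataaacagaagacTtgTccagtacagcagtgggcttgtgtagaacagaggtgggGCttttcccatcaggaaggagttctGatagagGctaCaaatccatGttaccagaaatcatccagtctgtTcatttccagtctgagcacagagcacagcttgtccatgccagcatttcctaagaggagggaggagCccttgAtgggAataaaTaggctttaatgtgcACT
Serpina3c: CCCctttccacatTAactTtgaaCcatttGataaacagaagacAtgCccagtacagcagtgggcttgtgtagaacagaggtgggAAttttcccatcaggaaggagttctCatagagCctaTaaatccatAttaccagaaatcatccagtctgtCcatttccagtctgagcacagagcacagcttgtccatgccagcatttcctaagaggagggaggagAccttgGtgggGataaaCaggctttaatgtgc
Serpina3g: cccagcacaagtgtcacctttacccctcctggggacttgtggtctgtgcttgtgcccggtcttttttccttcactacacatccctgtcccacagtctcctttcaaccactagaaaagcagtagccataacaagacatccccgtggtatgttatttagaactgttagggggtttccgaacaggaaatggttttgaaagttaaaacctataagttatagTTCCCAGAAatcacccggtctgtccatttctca
Serpina5: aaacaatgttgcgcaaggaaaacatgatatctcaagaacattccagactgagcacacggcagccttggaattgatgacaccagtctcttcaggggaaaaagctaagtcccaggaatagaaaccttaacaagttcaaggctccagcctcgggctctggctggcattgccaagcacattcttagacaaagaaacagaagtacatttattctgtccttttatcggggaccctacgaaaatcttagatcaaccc
In a global alignment the Serpina3n and Serpina3c windows shared 229 of 253 columns (90.5% identity), with 18 mismatches and 6 gap columns. The other pairs among Serpina1b, Serpina3c, Serpina3f, Serpina3g, Serpina3n and Serpina5 shared between 39.5% and 63% of columns. Both strands of each window were searched for 5 motifs. The letters of AP-1 were TGANTCA and those of STAT factors TTCNNNGAA. The TATA box was searched as TATAAA, with the GC box as GGGCGG and the cAMP response element as TGACGTCA. The STAT letters stood 33 bases before the Serpina3g start, and 7.02% of 32851 RefSeq promoters hold them in the same window. The TATA letters began 132 bases before the Serpina3c start, and 12.4% of promoters hold them. None of the 5 sets of letters was found in these windows of Serpina3n or Serpina5. Of the 22 tested members, 16 had a RefSeq promoter entry.

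Urokinase transcripts were high in fresh follicles, low at day 2 and partly back at day 5. Plau had normalised log2 levels of 11.13, 11.06, 11.46, 11.64 and 10.82 on the day 0 arrays, 7.45, 7.49 and 7.28 at day 2, 7.23, 7.80 and 8.38 at day 4, 9.67, 9.73 and 8.86 at day 5, 9.86, 10.09 and 10.22 at day 6, and 9.36, 9.55 and 9.19 at day 8. Every array of a cultured day lay below every day 0 array, and every array of days 5, 6 and 8 lay above every array of days 2 and 4. At day 2 the level was 14.1-fold lower than at day 0 (log2 change -3.82, SE 0.24, adjusted p = 7.15e-10, limma with Benjamini-Hochberg adjustment over all 10688 genes, as for every adjusted p here). Days 4 and 2 did not differ past the threshold of 0.05 (log2 change 0.40, 95% interval -0.16 to 0.95, adjusted p = 0.438). Day 5 was 3.06-fold above day 4 (log2 change 1.61, SE 0.27, adjusted p = 0.00261). Plau was the only member past the threshold in that step, 1 of 22 members, while 0.954% of all genes passed it and 0.543% were higher. At day 8 Plau was 3.89-fold above day 2 (adjusted p = 1.83e-05) and 3.62-fold below day 0 (adjusted p = 2.7e-06).

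The urokinase receptor fell and stayed low. Plaur had log2 levels of 7.55, 7.51, 7.60, 7.47 and 7.74 at day 0, 6.26, 6.43 and 6.1 at day 2, 5.53, 5.85 and 6.50 at day 4, 6.01, 6.25 and 5.83 at day 5, 5.59, 5.50 and 6.09 at day 6, and 6.31, 5.96 and 5.86 at day 8. All 15 cultured arrays lay below all 5 day 0 arrays, and days 4 to 8 overlapped one another. The level was 2.48-fold lower at day 2 than at day 0 (log2 change -1.31, SE 0.19, adjusted p = 3.7e-05) and 2.89-fold lower at day 8 than at day 0 (adjusted p = 1.78e-06). Days 8 and 2 did not differ past the threshold, with a change of -0.22 and a 95% interval of -0.66 to 0.22. In the step from which Plau rose, day 5 against day 4, the receptor differed by 0.07 (95% interval -0.37 to 0.51, adjusted p = 0.967). Plat, the tissue-type activator, was detected on 1 of 20 follicle arrays, with a lowest detection p of 0.0338, and was not tested.

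Among serpins that inhibit plasminogen activators, Serpine2 (protease nexin 1), which inhibits thrombin and plasminogen activators, had log2 levels of 10.29, 10.40, 10.34, 10.55 and 10.23 at day 0, 11.27, 11.05 and 11.07 at day 2, 11.55, 11.47 and 11.23 at day 4, 11.08, 10.88 and 11.17 at day 5, 11.71, 10.97 and 11.21 at day 6, and 11.13, 11.02 and 11.09 at day 8. All cultured arrays were above all fresh ones and lay between 10.88 and 11.71. It was 1.70-fold higher at day 2 than at day 0 (log2 change 0.77, SE 0.15, adjusted p = 6e-04) and 1.65-fold higher at day 8 than at day 0 (adjusted p = 0.000444). With the day 0 arrays averaged and counted as 1 sample, the adjusted p was 0.116 at day 2 and 0.0623 at day 8. Serpini1 (neuroserpin, an inhibitor of tissue plasminogen activator) averaged 6.06 ± 0.09 at day 8 and 5.52 ± 0.22 at day 0 (SD, n = 3 and 5). The difference passed the threshold (1.46-fold higher, adjusted p = 0.0339) but did not when any of 5 arrays was left out (day 0 repeat 1 or 4, or any of the 3 day 8 repeats; highest adjusted p 0.102).

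Serpina5 (protein C inhibitor, which also inhibits urokinase) was lowest in fresh follicles and highest at day 8. Its log2 levels were 7.34, 7.21, 7.02, 6.51 and 6.68 at day 0, 8.60, 8.78 and 8.69 at day 2, 9.91, 9.68 and 9.51 at day 4, 10.40, 10.24 and 9.60 at day 5, 10.15, 10.10 and 9.76 at day 6, and 11.53, 10.80 and 11.29 at day 8. Days 4, 5 and 6 overlapped and their steps missed the threshold (adjusted p = 0.638 and 0.905), while days 0, 2 and 8 overlapped no other day. The level was 3.34-fold higher at day 2 than at day 0 (log2 change 1.74, SE 0.21, adjusted p = 5.31e-06), 2.01-fold higher at day 4 than at day 2 (adjusted p = 0.0103, and 0.0539 without day 4 repeat 1) and 19.1-fold higher at day 8 than at day 0 (log2 change 4.26, SE 0.21, adjusted p = 9.88e-12). Serpina5 and Plau thus had opposite signs at day 2 against day 0. They had the same sign at day 8 against day 2, where Serpina5 was 5.72-fold higher (adjusted p = 2.69e-07). These Serpina5 levels rest on 1 probe, with follicle signals of 161 to 3400. Another Serpina5 probe, with signals of 77.3 to 152, was detected on 1 follicle array and did not pass the filter.

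**Figure D1:**
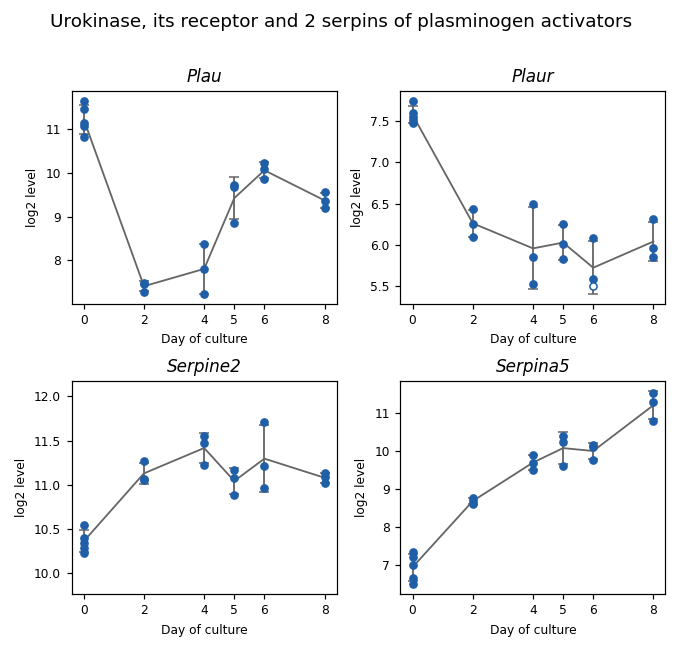
Normalised log2 level (y axis) against day of culture (x axis) for Plau, Plaur, Serpine2 and Serpina5; points are arrays (5 at day 0, 3 on other days), filled where the probe was detected, and the line joins day means with bars of 1 SD. Plau was lowest at day 2 (mean 7.41) and reached 10.06 at day 6, against 11.22 at day 0, while Serpina5 reached 11.21 at day 8, against 6.95 at day 0.

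Serpina3n and Serpina3c were also lowest at day 0 and highest at day 8. Serpina3n, an extracellular inhibitor of granzyme B and leukocyte proteases in the mouse, had log2 levels of 6.23, 6.56, 6.40, 6.24 and 6.41 at day 0, 8.29, 9.04 and 8.58 at day 2, 9.07, 9.10 and 9.00 at day 4, 9.62, 9.55 and 9.50 at day 5, 9.14, 10.03 and 9.63 at day 6, and 10.62, 10.21 and 10.63 at day 8. The day 0 arrays were the lowest and the day 8 arrays the highest, with no overlap with any other day. It was 4.83-fold higher at day 2 than at day 0 (log2 change 2.27, SE 0.18, adjusted p = 2.57e-08), 3.59-fold higher at day 8 than at day 2 (adjusted p = 1.6e-06) and 17.4-fold higher at day 8 than at day 0 (log2 change 4.12, SE 0.18, adjusted p = 1.88e-12). Serpina3c, listed in RefSeq also as kallikrein binding protein (Klkbp), was not above background on any day 0 array. Its log2 levels were 5.76, 5.39 and 5.03 at day 2, where 2 of 3 arrays detected it, 6.91, 6.98 and 5.73 at day 4, 7.25, 7.42 and 7.34 at day 5, 7.73, 7.63 and 8.02 at day 6, and 7.93, 8.25 and 8.49 at day 8. Each array of days 5 to 8 lay above each array of days 2 and 4. Day 8 exceeded day 0 at least 7.12-fold (adjusted p = 8.2e-10), a bound set against the lowest detected signal of each day 0 array, and was 7.11-fold higher than day 2 (adjusted p = 1.84e-07). Day 2 and day 0 did not differ past the threshold for Serpina3c (adjusted p = 0.0867). Its step at day 4 against day 2 was 2.21-fold (adjusted p = 0.00736) and missed the threshold when day 2 repeat 3, day 4 repeat 1 or day 4 repeat 2 was left out (highest adjusted p 0.0607).

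Serpina3g and Serpina3h were high at day 2, low at days 4 and 5 and high again at day 8. Serpina3g, an intracellular inhibitor of cathepsins in the mouse, had log2 levels of 8.2, 8.35, 8.29, 8.37 and 8.44 at day 0, 9.07, 9.91 and 8.93 at day 2, 6.86, 7.69 and 7.65 at day 4, 7.43, 7.66 and 7.15 at day 5, 8.08, 7.95 and 7.85 at day 6, and 9.32, 8.78 and 9.43 at day 8. Days 2 and 8 overlapped each other and lay above all other arrays. The level was 1.96-fold higher at day 2 than at day 0 (log2 change 0.97, SE 0.22, adjusted p = 0.00271), 3.74-fold lower at day 4 than at day 2 (log2 change -1.90, SE 0.25, adjusted p = 5.61e-05) and 2.32-fold higher at day 8 than at day 6 (adjusted p = 0.0202, and up to 0.121 without day 6 repeat 2 or 3 or day 8 repeat 1 or 3). Serpina3h, which RefSeq lists as a transcribed pseudogene, had log2 levels of 6.64, 6.46, 6.63, 6.47 and 6.70 at day 0, 7.57, 7.83 and 6.67 at day 2, 6.46, 6.17 and 5.65 at day 4, 6.65, 6.41 and 5.82 at day 5, 7.17, 7.22 and 6.92 at day 6, and 7.93, 7.75 and 8.39 at day 8. All day 4 arrays lay below all day 2 arrays, and days 2 and 8 overlapped. It was 2.4-fold lower at day 4 than at day 2 (adjusted p = 0.00473) and 2.72-fold higher at day 8 than at day 0 (adjusted p = 5.77e-05). Its difference at day 2 against day 0 was 1.71-fold (adjusted p = 0.0217), with overlapping arrays, and missed the threshold without day 2 repeat 1 or 2 (highest adjusted p 0.167). When day 0 counted as a single sample, the adjusted p for Serpina3g was 0.221 at day 2 and 0.157 at day 8, and for Serpina3h at day 2 it was 0.419.

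Serpina1b encodes an alpha-1-antitrypsin, a plasma inhibitor of neutrophil elastase. It was detected on all 5 day 0 arrays, at log2 levels of 6.46, 6.63, 6.14, 6.28 and 6.46, and on none of the 15 cultured arrays. On the scale used here the level was at least 2.03-fold lower at day 2 than at day 0 (adjusted p = 1.73e-09) and at least 1.93-fold lower at day 8 than at day 0 (adjusted p = 4.25e-10). The log2 change at day 2 was smaller in the authors' log2 values (-0.33) and without background correction (-0.84). A second Serpina1b probe was detected on 2 of 20 follicle arrays and did not pass the filter. Of 7 hepatocyte markers, Alb, Apoa2, Ttr, Fabp1 and Tat did not pass the filter, and the summed level of Apoa1 and Ahsg was 566 to 792 at day 2 and 1250 to 1660 at day 0. Apoa1 was lower at day 2 than at day 0 (log2 change -1.1, adjusted p = 0.01). Ahsg did not differ past the threshold there (log2 change -0.16, adjusted p = 0.665). Red blood cell markers, of which 4 of 7 were tested, summed to 171 to 194 at day 2 and 2460 to 3350 at day 0. The part of either in the Serpina1b difference was not tested. Serpina3f was detected on 2 of 3 arrays at day 2 and on none at days 4 to 8, and was at least 1.11-fold lower at day 4 than at day 2 (adjusted p = 0.00503). Serpina3m and Serpina4-ps1 did not differ between days (F test, adjusted p = 0.328 and 0.0632). Genes within the Serpina1, Serpina3 and Serpinb6 families are close copies, the probe sequences were not used here, and a signal may come from more than 1 of their members.

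**Figure D2:**
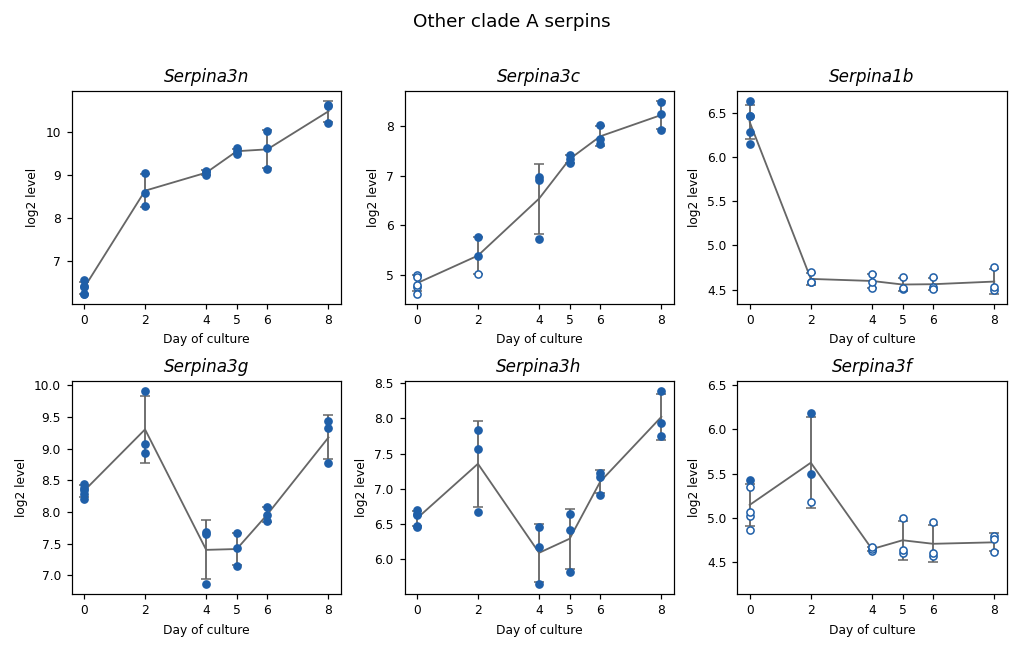
Normalised log2 level (y axis, own scale in each panel) against day of culture (x axis) for 6 clade A serpins; points are arrays, open where the probe was not detected, and the line joins day means with bars of 1 SD. Serpina3n and Serpina3c were highest at day 8 (means 10.48 and 8.22), Serpina1b was not detected after day 0, and Serpina3g had means of 9.30 at day 2 and 7.40 at day 4.

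The clade B serpins, which mostly stay inside the cell, split. Serpinb12 had log2 levels of 8.58, 8.92, 8.54, 8.41 and 8.56 at day 0, 6.98, 7.48 and 7.43 at day 2, 6.26, 6.70 and 6.72 at day 4, 6.69, 6.53 and 6.32 at day 5, 5.71, 6.14 and 6.34 at day 6, and 6.3, 5.66 and 5.75 at day 8. Day 0 and day 2 each lay above all later arrays, and days 4 to 8 lay between 5.66 and 6.72. It was 6.47-fold lower at day 8 than at day 0 (log2 change -2.69, SE 0.19, adjusted p = 9.38e-10). Serpinb1a, whose human counterpart inhibits neutrophil elastase, had log2 levels of 6.94, 6.92, 6.90, 7.22 and 7.40 at day 0, 7.19, 7.21 and 7.01 at day 2, 7.54, 8.06 and 7.74 at day 4, 8.11, 8.35 and 8.08 at day 5, 8.97, 8.43 and 8.51 at day 6, and 8.43, 8.38 and 8.62 at day 8. The arrays of days 0 and 2 overlapped, and all later arrays were above them. It was 2.64-fold higher at day 8 than at day 0 (log2 change 1.40, SE 0.16, adjusted p = 5.09e-07) and differed by 0.06 at day 2 against day 0 (95% interval -0.26 to 0.39). Serpinb6a, whose human counterpart inhibits cathepsin G, averaged 13.09 ± 0.23 at day 8 and 14.03 ± 0.01 at day 2 (SD, n = 3 each), and was 1.92-fold lower at day 8 than at day 2 (adjusted p = 0.000239). Against day 0 it was 1.33-fold higher at day 2 (adjusted p = 0.0443) and 1.44-fold lower at day 8 (adjusted p = 0.00556). With day 0 counted as 1 sample these p were 0.472 and 0.152. The day 2 difference missed the threshold in 11 of 20 fits that each left out 1 array (highest adjusted p 0.112), among them every fit without a day 2 array. Serpinb6b did not differ between days (F test, adjusted p = 0.263). Serpinb8 did not either (adjusted p = 0.258), although its comparison of day 8, where no array detected it, with day 0 gave at least 1.03-fold lower (adjusted p = 0.0479), a result lost in 12 of 20 fits without 1 array (highest adjusted p 0.142).

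Serpinf1 encodes pigment epithelium-derived factor, a secreted serpin that inhibits no protease and is known as an inhibitor of blood vessel growth. Its log2 levels were 12.34, 12.32, 12.31, 12.34 and 12.27 at day 0, 12.03, 11.96 and 12.09 at day 2, 11.22, 11.42 and 11.48 at day 4, 10.98, 11.12 and 11.38 at day 5, 10.98, 11.09 and 11.05 at day 6, and 10.84, 10.54 and 10.73 at day 8. Days 0, 2 and 8 overlapped no other day. It was 3.06-fold lower at day 8 than at day 0 (log2 change -1.61, SE 0.11, adjusted p = 1.04e-09), and the difference at day 2 against day 0, -0.29, missed the threshold (adjusted p = 0.0661). Serping1, the inhibitor of complement C1 proteases and kallikrein, had log2 levels of 9.17, 9.34, 9.30, 9.29 and 9.33 at day 0, 9.74, 9.98 and 9.74 at day 2, 8.35, 8.48 and 8.76 at day 4, 8.48, 8.57 and 8.71 at day 5, 9.37, 8.58 and 8.89 at day 6, and 8.86, 8.69 and 8.99 at day 8. Day 2 lay above all other arrays. It was 2.44-fold lower at day 4 than at day 2 (log2 change -1.29, SE 0.17, adjusted p = 5.91e-05), the same step in which Serpina3g and Serpina3h fell. Against day 0 it was 1.45-fold higher at day 2 (adjusted p = 0.0123, and 0.0758 without day 2 repeat 2). It was 1.35-fold lower at day 8 than at day 0 (adjusted p = 0.0232, and up to 0.113 without day 8 repeat 1 or 2). These p were 0.368 and 0.319 when day 0 counted as a single sample. Serpinh1, the collagen chaperone HSP47, averaged 10.66 ± 0.16 at day 8 and 10.53 ± 0.17 at day 0 (SD, n = 3 and 5), and the 6 days did not differ past the threshold (F test, adjusted p = 0.583; day 8 minus day 0, 95% interval -0.22 to 0.48). Serpinc1 (antithrombin) did not differ between days either (adjusted p = 0.191).

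**Figure D3:**
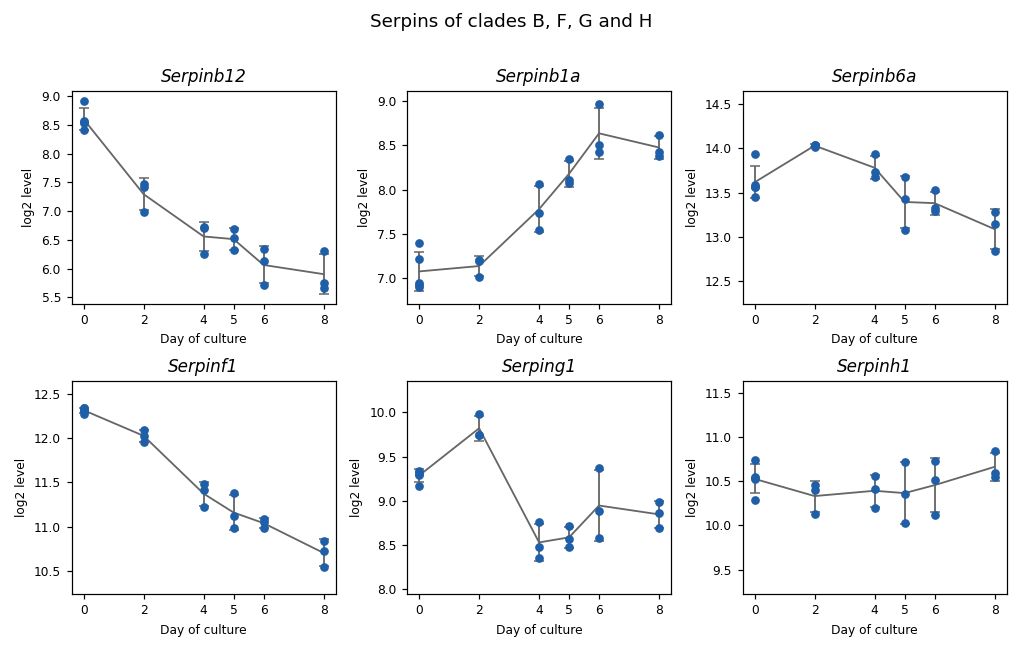
Normalised log2 level (y axis, own scale in each panel) against day of culture (x axis) for 6 serpins of clades B, F, G and H; points are arrays and the line joins day means with bars of 1 SD. Serpinb12 and Serpinf1 were lowest at day 8 (means 5.91 and 10.70), Serpinb1a was highest at day 6 (8.64), Serping1 was highest at day 2 (9.82), and Serpinh1 means stayed between 10.33 and 10.66.

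Markers of other cell types moved over the same days, and in pooled follicles fewer cells of a type and less RNA per cell cannot be told apart. Surface epithelium markers, of which 5 of 8 were tested, summed to 683 to 781 at day 8 and 2500 to 2780 at day 0, and Krt19, Upk1b and Msln did not pass the filter. Endothelial markers, 9 of 10 tested without Kdr, summed to 1520 to 1910 at day 8 and 3120 to 3410 at day 0. Smooth muscle markers, 5 of 7 tested without Tagln and Cnn1, summed to 2490 to 3290 at day 8 and 6150 to 6880 at day 0. These 3 sums were lower at day 8, although the endothelial gene Vwf was higher (log2 change 0.85, adjusted p = 0.0268) and Cdh5 and the smooth muscle gene Mcam differed by 0.11 and 0.12. Plau, Plaur, Serpina1b, Serpinb12, Serpinb6a, Serpinb8, Serpinf1 and Serping1 were also lower at day 8 than at day 0. At day 8 against day 2 Plau was higher (log2 change 1.96) and the 3 sums were lower. The theca and granulosa sums, given below for day 8, were higher there than at day 2 (1710 to 1810 and 37500 to 48600). At day 2 the surface epithelium, endothelial and smooth muscle sums were 1080 to 1110, 2380 to 2710 and 5780 to 6620. The smooth muscle genes Myh11, Rgs5 and Des were lower at day 2 than at day 0 (log2 change -1.01, -1.14 and -0.7). Acta2 and Mcam differed there by -0.03 and 0.06. Macrophage markers, 7 of 9 tested, summed to 720 to 1780 at day 8 and 384 to 435 at day 0, with 3 members higher (Lyz2 by 3.86, Fcgr3 and Cd68) and 3 lower (Cd14, Mrc1 and Adgre1). The defining markers Csf1r and Ptprc did not pass the filter. Theca markers, 7 of 8 tested without Gli1, summed to 9460 to 14000 at day 8 and 3150 to 3340 at day 0. Among them Star and Ptch1 did not differ past the threshold (log2 change 0.40 and 0.03, adjusted p = 0.0575 and 0.906). Granulosa markers summed to 49600 to 56400 at day 8 and 25400 to 34300 at day 0. Of these, Inha and Foxl2 did not differ past the threshold (log2 change 0.45 and 0.58, adjusted p = 0.11 and 0.292). Within the granulosa list Amh, a marker of preantral granulosa cells, went the other way and was detected on no day 8 array. Oocyte markers, 9 of 10 tested without Zp2, summed to 16900 to 17800 at day 8 and 67800 to 75600 at day 0. Their part in the changes of the serpins and of Plau was not tested.

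Counted together, 16 of the 22 tested members passed the moderated F test over the 6 days, as did 50.0% of all genes. The share covers only members that passed the filter, and Serpina1b, Serpina3c, Serpina3f, Serpina3m, Serpina4-ps1, Serpinb8 and Serpinc1 passed it through some of the days only. The median range between a member's lowest and highest day mean was 1.42 on the log2 scale, and 0.66 over all genes. At day 2 against day 0, 7 members were higher (12.1% of all genes) and 4 lower (13.1%). The higher ones were Serpina3g, Serpina3h, Serpina3n, Serpina5, Serpinb6a, Serpine2 and Serping1, and the lower ones Plau, Plaur, Serpina1b and Serpinb12. The 7 became 4 without day 2 repeat 2, and 2, Serpina3n and Serpina5, with day 0 counted as 1 sample. At day 8 against day 0, 8 members were higher (20.6% of all genes), namely Serpina3c, Serpina3g, Serpina3h, Serpina3n, Serpina5, Serpinb1a, Serpine2 and Serpini1, and 8 lower (22.8%), namely Plau, Plaur, Serpina1b, Serpinb12, Serpinb6a, Serpinb8, Serpinf1 and Serping1. Of these, 5 in each direction passed when day 0 counted as a single sample. At day 8 against day 2, 5 were higher (10.1%), namely Plau, Serpina3c, Serpina3n, Serpina5 and Serpinb1a, and 5 lower (12.3%), namely Serpina3f, Serpinb12, Serpinb6a, Serpinf1 and Serping1; 6 were lower without day 6 repeat 1.

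Within culture, neighbouring days were compared in 4 further steps. At day 4 against day 2, 9 members passed (8.39% of all genes): 3 were higher (3.05%), namely Serpina3c, Serpina5 and Serpinb1a, and 6 lower (5.34%), namely Serpina3f, Serpina3g, Serpina3h, Serpinb12, Serpinf1 and Serping1. Without day 6 repeat 1 the count was 10, and without day 2 repeat 3 or day 4 repeat 2 it was 6. In this step Serpinb12 (1.67-fold lower, adjusted p = 0.032) missed the threshold without day 2 repeat 2 or 3 or day 4 repeat 1 or 2 (highest adjusted p 0.157), and Serpinb1a (1.56-fold higher, adjusted p = 0.0272) without any day 2 repeat or without day 4 repeat 2 (highest adjusted p 0.154). At day 6 against day 5, 0 members passed in limma (1.34% of all genes). At day 8 against day 6, Serpina3g, Serpina3n and Serpina5 were higher (0.477% of all genes) and 0 lower (0.290%), so that 3 passed in either direction (0.767%). The count of 3 fell to 0 without day 6 repeat 3, day 8 repeat 1 or day 8 repeat 3, to 2 without day 6 repeat 1, and to 1 when day 0 counted as a single sample. Serpina3n (1.84-fold, adjusted p = 0.0464) missed the threshold in 16 of 20 fits without 1 array (highest adjusted p 0.215).

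**Figure D4:**
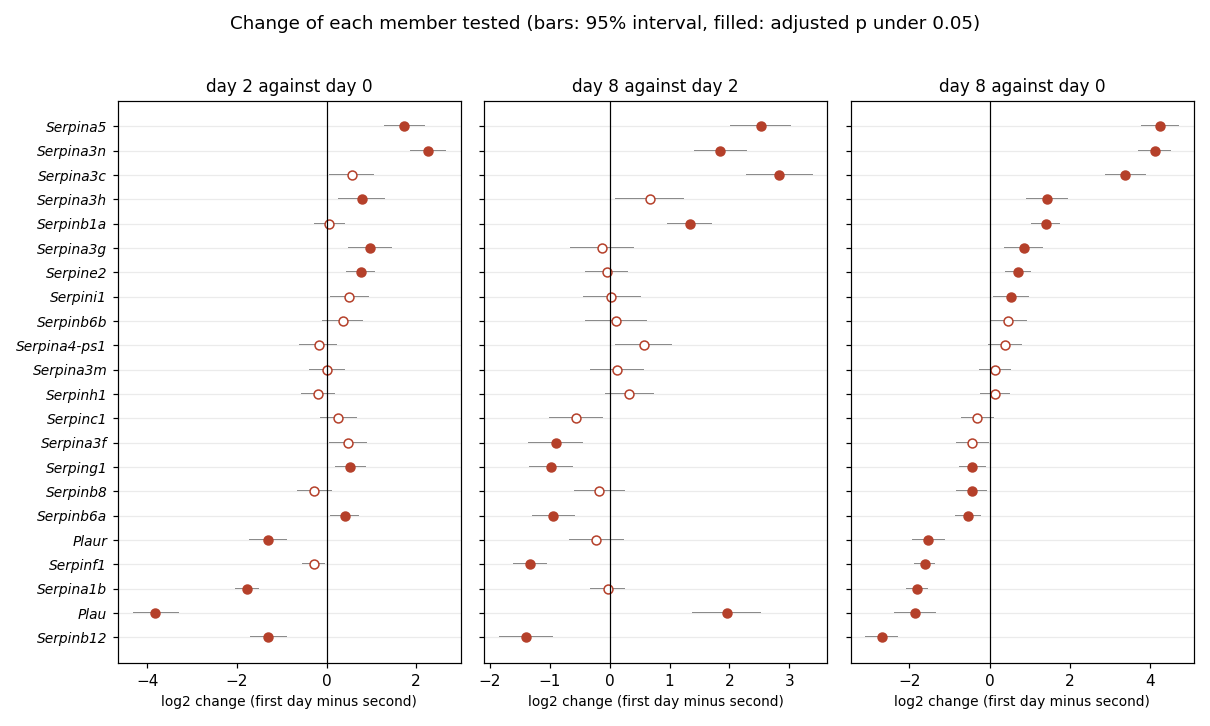
Log2 change (x axis) of the 22 tested members (rows) at day 2 against day 0, day 8 against day 2 and day 8 against day 0; points are fitted differences of day means, filled where the adjusted p was under 0.05, and bars are 95% intervals. Serpina5 and Serpina3n lie right of 0 in all 3 panels, Serpinb12 left of 0 in all 3, and Plau left of 0 against day 0 and right of 0 at day 8 against day 2.

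Another scaling gave smaller changes. The deposited log2 values made by the authors put 12 of the 16 changes called at day 8 against day 0 (43.4% of all genes were called there) and 8 of the 11 called at day 2 against day 0 (25.1%) at over 1.5 times less, in the same direction. On that scale the log2 change at day 8 against day 0 was 2.61 for Serpina5, 2.18 for Serpina3n, 0.97 for Serpina3c and -0.98 for Serpinb12, and at day 2 against day 0 it was -2.48 for Plau and -0.41 for Plaur.

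Other genes of the plasminogen system moved in both directions. Of 27 listed genes, 14 were tested; plasminogen itself (Plg), vitronectin (Vtn) and tissue factor (F3) did not pass the filter. At day 2 against day 0, 0 were higher and 4 lower (12.1% and 13.1% of all genes). The median change was -0.34, against a median of 0 over all genes. At day 8 against day 0, 2 were higher and 4 lower (median -0.35; 20.6% and 22.8% of all genes), and at day 8 against day 2, 3 were higher and 1 lower (median -0.06; 10.1% and 12.3%). Anxa2, which binds plasminogen and its tissue-type activator at the cell surface, averaged 13.00 ± 0.05 at day 2 and 14.04 ± 0.03 at day 0 (SD, n = 3 and 5; log2 change -1.04, adjusted p = 5.09e-07) and was back at 13.89 ± 0.08 at day 8, so that it was, as Plau was, lower at day 2 than at day 0 and higher at day 8 than at day 2 (log2 change 0.89, adjusted p = 1.44e-05). Eno1, a glycolytic enzyme that also binds plasminogen, was higher at day 8 than at day 0 by 1.35 (SE 0.34, adjusted p = 0.00277). Cpb2, the fibrinolysis inhibitor carboxypeptidase B2, was lower at day 8 than at day 0 by a log2 change of -1.73 (SE 0.27, adjusted p = 3.48e-05). The integrin subunit Itgav (log2 change -0.78, adjusted p = 0.0073) and the thrombin receptor F2r (log2 change -0.65, adjusted p = 0.00108) were also lower at day 8 than at day 0. Thrombomodulin (Thbd) was lower at day 2 than at day 0 (log2 change -0.70, adjusted p = 0.0188). It was higher at day 8 than at day 2 (log2 change 1, adjusted p = 0.00394). Days 8 and 0 did not differ past the threshold for Thbd (log2 change 0.3, adjusted p = 0.277).

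Of 23 listed proteases that serpins can inhibit or that are related to such targets, 11 were tested. At day 2 against day 0, 4 were higher and 1 lower (median 0.33, with 12.1% and 13.1% of all genes). At day 8 against day 0, 7 were higher and 0 lower (median 1.05, with 20.6% and 22.8% of all genes). The counts were the same at day 8 against day 2 (median 0.74, with 10.1% and 12.3% of all genes). Furin, Htra1, Masp2 and C1s1 did not pass in either day 8 comparison. Tissue kallikrein (Klk1) was not above background at days 0 and 2 and was detected on every later array, with means of 6.58, 7.06, 7.83 and 8.67 over days 4, 5, 6 and 8 (n = 3 each). Masp1, a complement protease that the product of Serping1 inhibits, was higher at day 8 than at day 0 by a log2 change of 2.60 (SE 0.23, adjusted p = 2.31e-08). The lysosomal cathepsins Ctsl (log2 change 2.38, adjusted p = 7.53e-09), Ctss (1.91, adjusted p = 1.28e-05) and Ctsb (1.05, adjusted p = 1.96e-05) were higher at day 8 than at day 0, as was Prss35, a secreted protease-like gene of the ovary, (1.29, adjusted p = 1.32e-06). Cathepsin G (Ctsg), proteinase 3 (Prtn3) and granzyme B (Gzmb), known targets of clade A and B serpins, did not pass the filter.

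Serpinh1 works beside enzymes that modify collagen in the endoplasmic reticulum. Of 11 listed, 10 were tested. At day 2 against day 0, 1 was higher and 1 lower (median 0.16, with 12.1% and 13.1% of all genes). At day 8 against day 0, 6 were higher and 0 lower (median 0.69, with 20.6% and 22.8% of all genes). At day 8 against day 2, 5 were higher and 0 lower (median 0.61, with 10.1% and 12.3% of all genes). The lysyl hydroxylase Plod2 was higher at day 8 than at day 0 by 1.04 (adjusted p = 2.8e-05), the prolyl 3-hydroxylase P3h1 by 1.16 (adjusted p = 0.000224), the prolyl 4-hydroxylase subunit P4ha2 by 1.02 (adjusted p = 0.000338) and Crtap, the partner of P3h1, by 0.96 (adjusted p = 0.00176). P4ha1 was lower at day 2 than at day 0 by a log2 change of -1.07 (adjusted p = 0.00056).

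The remaining 37 members gave no test. Of these, 29 were detected on no follicle array, among them Serpind1 (heparin cofactor 2), Serpinf2 (the plasmin inhibitor alpha-2-antiplasmin), Serpina6 (corticosteroid-binding globulin), Serpinb5 and Serpinb9. A further 8, Plat, Serpina1d, Serpina1f, Serpina7, Serpinb13, Serpinb2, Serpinb9c and Serpinb9d, were detected on 1 or 2 of 20 arrays. Clade B held 24 genes on the array, of which 5 were tested and 15 never detected; clade A held 22, of which 9 were tested and 10 never detected.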

How the data were processed

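Total RNA of pooled follicles was measured on Illumina mouse bead arrays. Per the file headers, the deposited table gives for each of 25697 probes and array the bead signal as an intensity without normalization, its standard error, a detection p-value and a bead number (another unit, a count of beads). The authors' second table holds log2 values; its normalization is not given in the sources used here. Signals of the 20 follicle arrays were background corrected and quantile normalized with neqc (limma 3.58.1, R 4.3.3, offset 16). Kept were 14490 probes detected (p under 0.05) on 3 arrays or more, and the brightest probe per symbol was used (10688 genes). A model with 1 mean per day was fitted with lmFit and eBayes, with Benjamini-Hochberg adjustment of p-values across all genes and a threshold of 0.05; a moderated F test covered the 6 days. A day with no array detected was treated as not above background, and a fold against it is a bound. Symbols were updated with RefSeq (GRCm38.p6), which also gave the promoters; these were aligned with Biopython 1.88 (match 1, mismatch -1, gap opening -2, gap extension -0.5).

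Every tested member is named; array values are given for Plau, Plaur, Serpine2 and the members with the largest range of day means, and up to 6 members of each pathway list. Some results are not reported here. Levels are not compared between genes, and the number of arrays limits the precision. The members and lists were chosen with earlier results of these data known. On simulated data for day 2 against day 0 (10688 genes), 38.8% of 1.5-fold, 85.1% of 2-fold and 100% of 4-fold changes were recovered. The simulation changed 66 or 67 genes per size and drew all day 0 arrays independently. Its shares need not hold for the data, where 2688 genes passed and day 0 could stem from 1 pool. Same-numbered arrays of different days correlated between -0.42 and 0.56, over 0.1 in 15 of 45 pairs, so the numbers were not used to pair arrays. Alternatives were the authors' values, no background correction, other detection filters, probe means, array weights, day 0 as 1 sample, a replicate block and leaving out each array.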

Additional observations from a re-analysis of the deposited data

Results flagged for a closer look

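In day 0 follicles, 2 of 22 members had 1 array far from the other 4: Serpinb6a had a log2 level of 13.93 on repeat 4, with the nearest array at 13.58, and Serping1 had 9.17 on repeat 1, with the nearest at 9.29. Chance alone sets about 1 group in 20 apart in this way. On the arrays labelled brain reference, which entered no comparison, the second Serpina1b probe was detected on 5 of 5 arrays, against 2 of 20 follicle arrays, and Serpina1d was detected on 5 of 5, against 1 of 20 follicle arrays; those arrays carried high heart muscle signals, as described above.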

How the results depend on the processing

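Of 510 member changes recomputed for the 3 main comparisons under 8 alternatives, 476 kept their direction and side of the threshold, 19 lost the call, 14 gained one and 1 turned: Serpina3m at day 8 against day 2, 0.12, became -0.06 with array weights. With day 0 counted as 1 sample, the higher members at day 2 fell to 2, the higher and lower ones at day 8 against day 0 to 5 and 5, and day 8 against day 6 to 1; that setting leaves day 0 without replicates, so its spread is taken from the other days. Without a detection filter 59 members were tested and 7 were lower at day 2. Leaving out each array gave ranges of 15 to 17 members for the F test, 4 to 8 higher and 4 to 4 lower at day 2 against day 0, 7 to 9 higher and 6 to 9 lower at day 8 against day 0, 5 to 6 and 5 to 6 at day 8 against day 2, 6 to 10 at day 4 against day 2, 1 to 1 at day 5 against day 4, 0 to 0 at day 6 against day 5 and 0 to 3 at day 8 against day 6. With the replicate block the count at day 8 against day 6 was 1, Serping1 and Serpini1 at day 8 against day 0 had adjusted p of 0.0843 and 0.0709, and Serpina3f passed there (0.0496). Over all genes, 2688 passed at day 2 against day 0, 498 with day 0 as 1 sample and 4802 with array weights; at day 8 against day 0, 4637 passed, 2113 with day 0 as 1 sample; at day 8 against day 2, 2396 passed, 3885 with array weights. The causes were not tested beyond the fewer samples. Serpinb8 was detected on 4 of 20 arrays.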
